A study of Mus musculus with 62 samples.

Results

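Glucocorticoid action in skeletal muscle was followed through 10 genes in quadriceps of 62 male mice: Fkbp5, Tsc22d3, Klf9, Klf15, Zbtb16, Sgk1, Mt1, Mt2, Ddit4 and the receptor gene Nr3c1. They were taken by symbol from the 55487 genes of the deposited count table, each symbol was found once, and all 10 were among the 14549 genes that passed the filter on low counts. The list holds genes known as targets of the hormone, and it was chosen by symbol when 2 measured values of these libraries were already in view, the lower Fkbp5 level in running mice and the Mt2 level under pterostilbene. The running and pterostilbene comparisons below are therefore descriptions of levels and fitted changes. No p-value is printed for them, and whether a member passed the threshold is stated as a description only. No hormone level and no glucocorticoid treatment is among the labels, so the responsiveness of these genes is background knowledge and was not measured here.

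The 3 factors of the design, each present or absent in all combinations, were access to running wheels (Training), nicotinamide riboside (NR, a precursor of NAD) and pterostilbene (PT, a stilbenoid of plants). The groups with running wheels were running with both supplements (8 mice), running with NR (7), running with PT (8) and running with neither (7), and the groups without were both supplements (8), NR (8), PT (8) and neither (8). The series title gives the NR route as intravenous, whereas strain, age, doses and durations were not among the labels. Each mouse was killed in the morning or at noon on 1 of 8 days, 4 days in each of 2 cohorts. On every day all running mice were killed at 1 of these times and all non-running mice at the other, so within a day running and time cannot be told apart, and they are separated only by the change of order between days.

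Glucocorticoids such as corticosterone enter the cell and bind the glucocorticoid receptor, the product of Nr3c1, which is held in the cytosol by heat shock proteins and immunophilins. The bound receptor moves to the nucleus, sits on paired AGAACA sites and raises transcription of its targets. In muscle the hormone is known for restraining protein synthesis and promoting breakdown of protein and amino acids, and its blood level follows a daily rhythm.

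The libraries held 5.64 to 30.8 M counts, with a median of 16.1 M. Levels are in CPM, counts scaled to library size, with library sizes adjusted by TMM, a method that corrects library sizes for differences in composition. Of the 62 libraries 8 had more than 5 times the median share of ribosomal-like counts, and the shallowest library, running with NR replicate 1, was made up of them to 23.1%. Muscle fibre markers summed to 123000 to 167000 CPM in running mice and 129000 to 163000 CPM in non-running mice over 8 genes. In bulk tissue, fewer cells of a type and less RNA per cell cannot be told apart.

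Per kilobase of gene length, the level of Tsc22d3 was highest, at 49.9 ± 8.16 CPM per kb (SD, n = 62, as for the values that follow). Klf9 followed at 44.5 ± 3.94 and Sgk1 at 36.3 ± 7.97 CPM per kb. A wide gap separated these from the rest. Nr3c1 lay at 14.8 ± 1.26 and Klf15 at 14.6 ± 2.21 CPM per kb. Then came Ddit4 at 8.59 ± 4.03, Zbtb16 at 8.26 ± 2.23, Mt1 at 4.85 ± 1.68, Fkbp5 at 4.30 ± 1.64 and Mt2 at 2.0 ± 1.02 CPM per kb. Tsc22d3 and Klf9, Nr3c1 and Klf15, Ddit4 and Zbtb16, and Mt1 and Fkbp5 stand next to each other in this order and differed by less than the larger of their SDs. The values per kb and the order depend on the deposited gene lengths. For Mt1 that length is 1246 bases, its whole span from start to end, whereas its coding stretch is 186 bases. Fkbp5 was given 9468 bases. The spread between mice also differed: the coefficient of variation of CPM was 8.58% for Nr3c1 and 8.88% for Klf9, against 38.3% for Fkbp5, 46.8% for Ddit4 and 50.6% for Mt2. Counts were fewest for Mt2, with 3 to 58 per library, and for Mt1, with 6 to 231, while Fkbp5 had 159 to 1940.

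**Figure D1:**
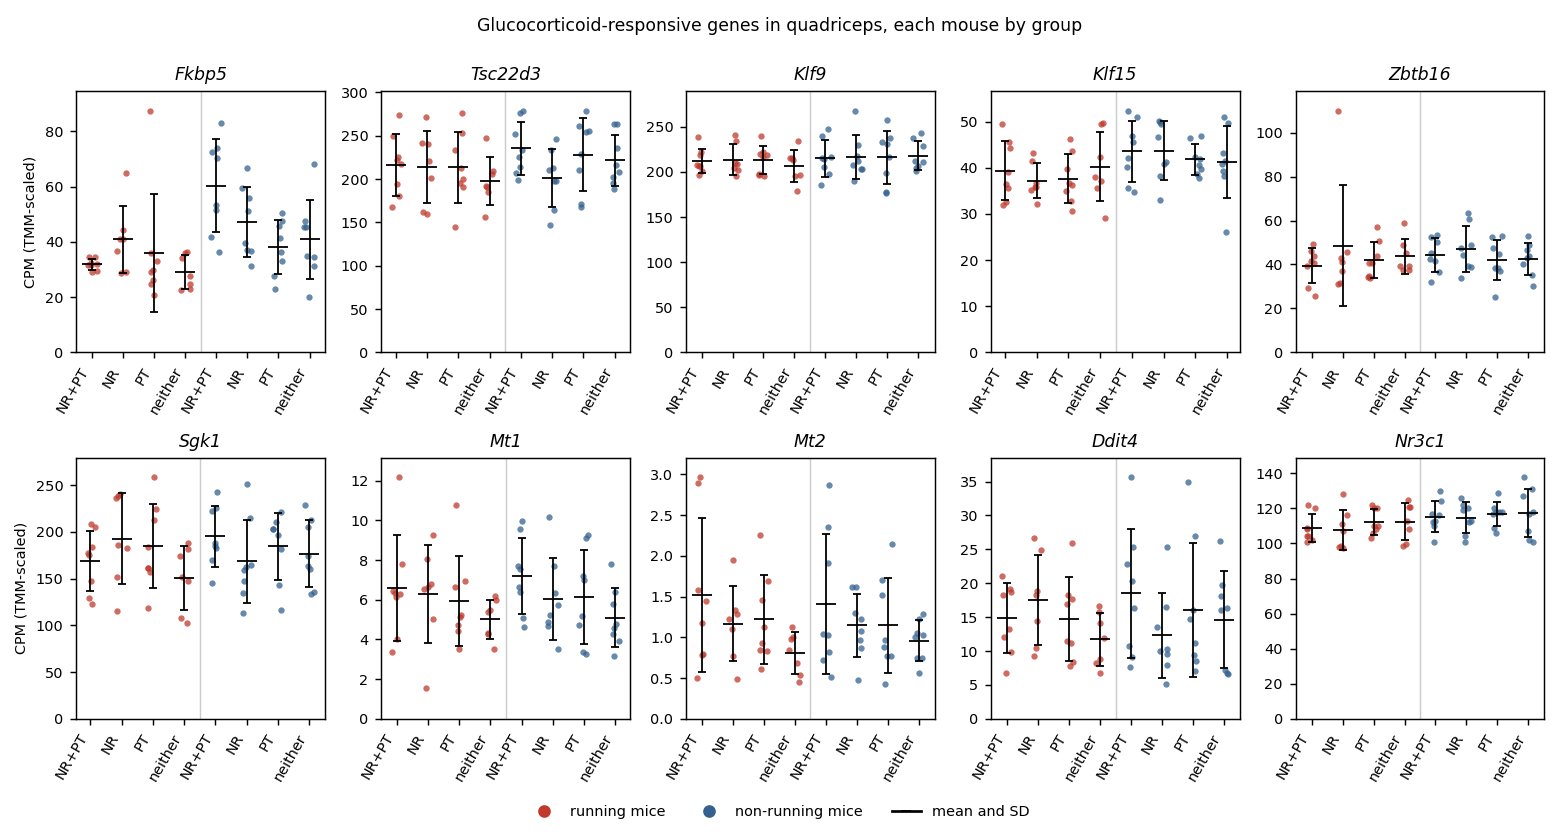
TMM-scaled CPM of each of the 10 genes (vertical axes, from 0) in each mouse by group, running mice in red to the left of non-running mice in blue, with supplements on the horizontal axis; black marks are the mean and SD. Fkbp5 is lower in running than in non-running mice with both supplements, without overlap, while the groups of the other genes overlap widely. How many of all genes show no overlap in that arm was not counted.

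Fkbp5 (ENSMUSG00000024222, chr17:28399094-28517524 in mm10 as deposited, minus strand) encodes the immunophilin FKBP51, which binds receptor complexes and lowers their affinity for the hormone, so that its induction closes a feedback loop. It was the member with the largest fitted change in running muscle. Its level ranged from 20.8 to 87.5 CPM with a median of 31.9 CPM in the 30 running mice, and from 19.9 to 83.0 CPM with a median of 45.5 CPM in the 32 non-running mice. The ranges overlapped almost fully, and the means were 34.4 ± 13.0 CPM in running and 46.7 ± 15.6 CPM in non-running mice (SD). The fitted change was -0.44 ± 0.12 on the log2 scale (SE), a fold of 0.740 with a 95% interval of 0.627 to 0.873. Fkbp5 was listed with this lower level known, which the interval does not take into account, so nothing is read from it. Fkbp5 was lower in the running mouse in 23 of 30 pairs of mice that shared day and supplements, and the running mean was the lower one on 7 of 8 days.

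Day 2 was the exception, with 46.3 CPM in running mice killed in the morning against 38.6 CPM in non-running mice killed at noon, 4 mice each. That running mean holds the highest Fkbp5 level of the study, 87.5 CPM in running with PT replicate 2, where the other mice of its group had 20.8 to 35.9 CPM. Without this library the fitted change was -0.52 ± 0.10. The session means show the widest gaps on day 1, with 31.3 CPM in running and 55.8 CPM in non-running mice, and on day 4, with 28.3 CPM in running and 52.9 CPM in non-running mice.

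**Figure D2:**
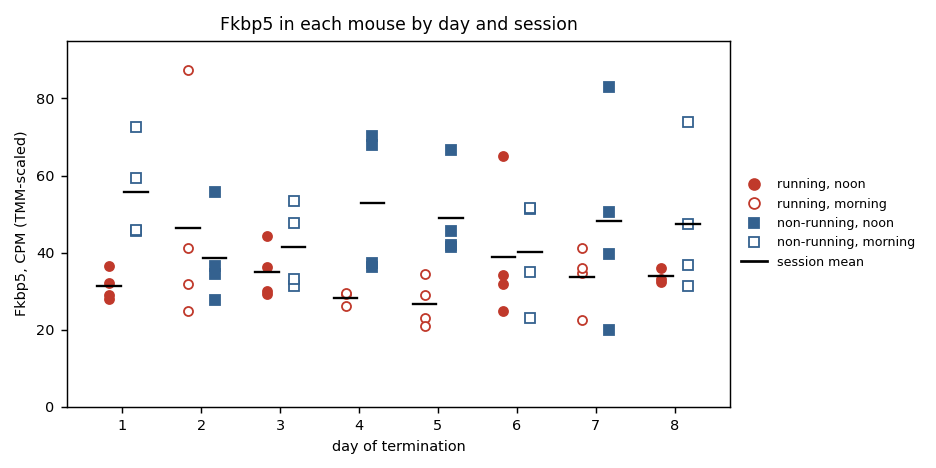
Fkbp5 in TMM-scaled CPM (vertical axis) in each mouse by day of termination (horizontal axis), running mice as red circles left of non-running mice as blue squares, filled at noon and open in the morning; bars are means of a session. The running mean lies below the non-running mean on 7 of 8 days, and the exception, day 2, holds the mouse at 87.5 CPM.

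With edgeR's quasi-likelihood test and Benjamini-Hochberg adjustment over all 14549 genes, 1 of the 10 genes, Fkbp5, fell past an adjusted p of 0.05 and none rose. Over all genes tested 14% passed, 5.58% lower and 8.41% higher in running mice, and since the list was drawn up with the running result of Fkbp5 known, nothing is read from this count. The fitted changes of all 10 members were below 0, with a median of -0.07 on the log2 scale, where 44.9% of all genes tested were below 0 and their median was 0.01. Fkbp5 passed neither within cohort 2 alone (-0.43 ± 0.15) nor within cohort 1 alone (-0.41 ± 0.18), nor without day 1 (-0.36 ± 0.14), day 4 (-0.37 ± 0.13) or day 5 (-0.37 ± 0.13). With body weight change as a covariate its change was -0.28 ± 0.18 and did not pass; the median weight change, in a unit the labels do not state, was 0.7 in running noon, -1.8 in running morning, 2.3 in non-running noon and 2.85 in non-running morning mice. When the counts were summed per session (day and running state), Klf15 passed (-0.16 ± 0.04) and Fkbp5 did not (-0.49 ± 0.15).

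Markers of cell types were counted for running too, where 8.41% of all genes tested rose and 5.58% fell. All 8 endothelial markers rose, and their sum was 248 to 489 CPM with a median of 354 CPM in running mice, against 240 to 336 CPM with a median of 289 CPM in non-running mice. Of the other markers 3 of 5 for smooth muscle and pericytes, 2 of 6 for fibroblasts, 2 of 6 for macrophages, 1 of 6 for adipocytes and 2 of 8 for muscle fibres rose, and 1 of 5 for smooth muscle and pericytes and 1 of 4 for Schwann cells fell. The summed level for smooth muscle and pericytes was 310 to 581 CPM in running and 302 to 454 CPM in non-running mice, and for fibroblasts 947 to 2090 CPM in running and 632 to 2080 CPM in non-running mice. For macrophages it was 73.8 to 175 CPM in running and 54.4 to 167 CPM in non-running mice, and for adipocytes 135 to 606 CPM in running and 115 to 598 CPM in non-running mice. The sums of running and non-running mice overlapped for each of these lists. All markers on these lists passed the filter on low counts, and none of the 4 for erythrocytes passed the running test. The Schwann cell sum was 25.4 to 46.4 CPM in running and 28.1 to 54.4 CPM in non-running mice, and the erythrocyte sum 40.2 to 212 CPM in running and 42.7 to 184 CPM in non-running mice. The part of these shifts in the member genes' changes was not tested.

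The running change of Fkbp5 was also fitted within each supplement arm. With both supplements the running mice had 29.1, 29.5, 31.7, 31.8, 32.0, 32.4, 34.4 and 34.6 CPM, and the non-running mice 36.4, 41.9, 51.5, 53.3, 70.2, 72.5, 74.0 and 83.0 CPM. Every running mouse of this arm lay below every non-running one, and the running mouse was the lower one in 8 of 8 pairs of a day. How many of all genes show no overlap in this arm was not counted, so nothing is read from it. The fitted change of Fkbp5 was -0.91 ± 0.23, a fold of 0.531 with an interval of 0.384 to 0.733. It was -0.51 ± 0.24 with neither supplement, -0.19 ± 0.24 with NR alone and -0.12 ± 0.23 with PT alone. In the PT arm the running group held the mouse at 87.5 CPM. The interval for both supplements likewise takes no account of the lower running level being known, and nothing is read from it.

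The running group with both supplements was also the tightest, with an SD of 1.98 CPM around 31.9 CPM. The SD was 16.8 CPM around 60.3 CPM in the non-running group with both supplements, and 6.13 to 21.4 CPM in the other running groups. Of the 10 genes 1 passed for running with both supplements, against 1.7% of all genes, and 0 passed with neither supplement (0% of all genes), with NR alone (0.447%) or with PT alone (0.00687%). The 1 gene was Fkbp5, and the arms reuse the mice in which its lower running level was known when the list was drawn up, so nothing is read from these counts.

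The difference between arms was tested by the interaction of the 3 factors, which the list did not use. For Fkbp5 it was -1.11 ± 0.47 on the log2 scale (edgeR, unadjusted p = 0.0232, adjusted p = 1), so the arms are not shown to differ. For Sgk1 it was -0.65 ± 0.33 and for Ddit4 -1.09 ± 0.69, both with adjusted p = 1 by edgeR. The group running with PT holds the Fkbp5 level of 87.5 CPM, and the Fkbp5 interaction without this mouse was not tested. The interactions of running with NR, running with PT and NR with PT, like that of all 3 factors, were passed by 0 of 10 members and 0% of all genes. At an unadjusted p below 0.05 they held 0, 0, 0 and 1 of the 10 genes, against 3.61%, 3.51%, 2.25% and 2.77% of all genes.

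NR gave Fkbp5 its next largest difference. Its level ranged from 28.9 to 83.0 CPM with a median of 39.6 CPM in the 31 mice given NR, and from 19.9 to 87.5 CPM with a median of 34.2 CPM in the 31 mice without. The ranges overlapped, the level was higher with NR in 24 of 30 pairs of a day, and the fitted change was 0.31 ± 0.12 (edgeR, unadjusted p = 0.012, adjusted p = 0.723). In cohort 2 alone it was 0.53 ± 0.15 and in cohort 1 alone 0.12 ± 0.17, and neither passed. For NR 0 of 10 members passed, against 0.0206% of all genes, and 2 of 10 had an unadjusted p below 0.05, against 5.69% of all genes. The other was Mt1, at 0.24 ± 0.12 (adjusted p = 0.874 by edgeR), with 0.35 ± 0.14 in cohort 2 alone and 0.14 ± 0.20 in cohort 1 alone.

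Among the transcriptional regulators, the changes with running were small. Tsc22d3 encodes GILZ, a leucine zipper protein that restrains inflammatory transcription factors. It ranged from 145 to 276 CPM with a median of 207 CPM in running mice and from 147 to 279 CPM with a median of 215 CPM in non-running mice, and its fitted change was -0.07 ± 0.06. These ranges were nearly the same.

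Klf9, a Krüppel-like repressor that responds to both glucocorticoids and thyroid hormone, was the least variable target gene. It ranged from 179 to 241 CPM with a median of 209 CPM in running mice and from 177 to 268 CPM with a median of 213 CPM in non-running mice, with a change of -0.03 ± 0.03. The interval of -0.09 to 0.03 leaves room for a fold of 0.937 to 1.02.

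Klf15, a regulator of branched-chain amino acid breakdown in muscle, had the second largest change after Fkbp5. It ranged from 29.1 to 49.7 CPM with a median of 36.7 CPM in running mice, and from 26.0 to 52.4 CPM with a median of 41.7 CPM in non-running mice. The running mice lay inside the range of the others but mostly in its lower part, 20 of 30 pairs were lower in the running mouse, and the change was -0.14 ± 0.06, a fold of 0.906 (0.836 to 0.981). It did not pass over all genes with all libraries, and it passed without day 3 (-0.17 ± 0.05) and without day 5 (-0.20 ± 0.06). With a day left out it was -0.20 to -0.12, and it was -0.10 ± 0.06 without the libraries rich in ribosomal-like counts.

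Zbtb16, which encodes the zinc finger repressor PLZF, ranged from 25.9 to 110 CPM with a median of 40.7 CPM in running mice and from 25.3 to 63.5 CPM with a median of 44.2 CPM in non-running mice. The value of 110 CPM came from the shallowest library, where the other running mice with NR had 31.3 to 45.9 CPM. Its change was -0.04 ± 0.09, and -0.11 ± 0.08 without that library.

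Nr3c1, the receptor itself, ranged from 97.2 to 128 CPM with a median of 108 CPM in running mice and from 101 to 138 CPM with a median of 117 CPM in non-running mice. The groups overlapped, and 21 of 30 pairs were lower in the running mouse. The change was -0.08 ± 0.03, a fold of 0.949 with an interval of 0.909 to 0.991. It did not pass with all libraries. It passed without the 8 libraries rich in ribosomal-like counts (-0.13 ± 0.03), without the shallowest library (-0.10 ± 0.03), without day 2 (-0.10 ± 0.03) and without day 8 (-0.10 ± 0.03). It was smaller and did not pass without day 1 (-0.06 ± 0.04), without day 7 (-0.05 ± 0.03) and with body weight change as a covariate (-0.04 ± 0.05).

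Sgk1 (ENSMUSG00000019970, chr10:21882184-21999893 as deposited, plus strand) encodes a serum- and glucocorticoid-regulated kinase of the AKT type that acts on ion channels and FOXO factors. It ranged from 103 to 259 CPM with a median of 176 CPM in running mice and from 113 to 251 CPM with a median of 183 CPM in non-running mice, a change of -0.07 ± 0.08. Ddit4 encodes REDD1, which restrains the growth kinase complex mTORC1. It ranged from 6.70 to 26.7 CPM with a median of 14.3 CPM in running mice and from 5.08 to 35.7 CPM with a median of 14.2 CPM in non-running mice, a change of -0.04 ± 0.17. For both, the medians of running and non-running mice lay well inside either range.

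Of the 10 genes, the receptor gene Nr3c1 was left out of the promoter search, and no window was matched for Zbtb16. For the other 8, RefSeq promoters (GRCm38.p6, the sequence of mm10) were taken as 15 windows of 250 bases before to 50 after a start. They were searched on both strands for the complete glucocorticoid response element, AGAACA and TGTTCT with any 3 bases between them, whose letters read the same on either strand. Only 3 of 32851 promoters in the table hold it (0.00913%), and 1 of them is an Sgk1 promoter, 1 of 6 listed for that gene. Its first 280 bases are shown because they carry the element, in capitals at 189 to 175 bases before the start (chr10:21993640-21993919, plus strand).
Sgk1: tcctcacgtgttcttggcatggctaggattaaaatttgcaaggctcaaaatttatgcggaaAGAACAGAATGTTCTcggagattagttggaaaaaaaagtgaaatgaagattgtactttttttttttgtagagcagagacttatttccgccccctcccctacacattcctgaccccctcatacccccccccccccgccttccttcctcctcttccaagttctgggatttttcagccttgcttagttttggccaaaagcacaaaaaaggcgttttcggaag
A single AGAACA on either strand is common, in 19.0% of promoters, and the element itself accounts for 2 of the 3 such sites in this window. The windows of Fkbp5, Klf9, Klf15, Ddit4, Mt1 and Mt2 held none, and 1 of 3 Tsc22d3 windows held 1. The Sgk1 windows at chr10:21881934-21882233 and chr10:21991973-21992272 also held 1 each. Sites outside the windows were not searched. A match describes letters in this window and is not shown to be bound.

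Mt1 and Mt2 encode metallothioneins, small cysteine-rich proteins that bind zinc and copper and are induced by metals and by glucocorticoids. Mt1 ranged from 1.55 to 12.2 CPM with a median of 6.05 CPM in running mice and from 3.17 to 10.2 CPM with a median of 5.77 CPM in non-running mice, a change of -0.05 ± 0.12. Mt2 ranged from 0.450 to 2.97 CPM with a median of 1.05 CPM in running mice and from 0.429 to 2.87 CPM with a median of 1.03 CPM in non-running mice, a change of -0.06 ± 0.17. The ranges of both genes were close to the same with and without running.

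The metallothionein genes are neighbours on the plus strand of chromosome 8 and similar in sequence. Their coding stretches of 186 bases share 148 bases (79.6%), but the longest identical run in their transcripts is 20 bases, shorter than the 52-base reads. Their promoters hold matches to the core of the metal response element, searched on both strands as TGCACNC and TGCGCNC, 3 in Mt1 and 4 in Mt2. Of all promoters 25.7% hold at least 1 such match, 1.97% at least 3 and 0.517% at least 4. The windows are shown with the matches in capitals, from 250 bases before to 30 bases from the start (Mt1 at chr8:94178839-94179118 and Mt2 at chr8:94172368-94172647, both plus strand).
Mt1: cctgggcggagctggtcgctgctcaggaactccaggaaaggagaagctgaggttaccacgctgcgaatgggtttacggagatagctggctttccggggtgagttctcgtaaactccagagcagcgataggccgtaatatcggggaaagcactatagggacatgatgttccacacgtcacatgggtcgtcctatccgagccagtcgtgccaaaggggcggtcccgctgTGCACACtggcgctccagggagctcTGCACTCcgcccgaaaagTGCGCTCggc
Mt2: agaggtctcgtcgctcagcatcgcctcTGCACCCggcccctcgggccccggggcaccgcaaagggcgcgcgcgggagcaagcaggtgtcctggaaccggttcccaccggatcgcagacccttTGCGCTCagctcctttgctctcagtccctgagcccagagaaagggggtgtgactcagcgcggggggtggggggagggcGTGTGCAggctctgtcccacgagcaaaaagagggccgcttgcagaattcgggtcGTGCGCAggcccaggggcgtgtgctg
With the start base counted as 0, the Mt1 matches begin at -23, 2 and 20, and the Mt2 matches at -223, -128, -50 and 4.

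Under PT the metallothioneins had the largest differences of the list, with Ddit4. Mt2 ranged from 0.429 to 2.97 CPM with a median of 1.03 CPM in the 32 mice given PT and from 0.450 to 1.95 CPM with a median of 1.02 CPM in the 30 mice without. The medians were alike and the upper ends differed: the mean was 1.32 ± 0.731 CPM with PT and 1.02 ± 0.360 CPM without (SD), and the fitted change was 0.36 ± 0.17, with 0.42 ± 0.22 in cohort 2 alone and 0.20 ± 0.21 in cohort 1 alone. Mt2 was higher with PT in 17 of 30 pairs of a day. Mt1 had a change of 0.17 ± 0.12 and Ddit4 of 0.17 ± 0.17, while Fkbp5 had 0.04 ± 0.12.

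For PT 0 of 10 members passed edgeR's test, against 0% of all genes. At an unadjusted p below 0.05 there were 3.99% of all genes and 1 of 10 members, Mt2. Its level under PT was known when the list was drawn up, so nothing is read from this count. DESeq2 likewise called 0 of 10 members for PT, NR, the 4 interactions of the factors, running by time, cohort and body weight. With NR, Mt2 had a change of 0.33 ± 0.17 (adjusted p = 0.918 by edgeR), with 0.55 ± 0.22 in cohort 2 alone and 0.02 ± 0.21 in cohort 1 alone. The highest mean of Mt2 was 1.52 ± 0.942 CPM in running mice with both supplements, and the lowest was 0.806 ± 0.256 CPM in running mice with neither; groups of 7 and 8 mice overlapped. Counts of Mt2 are uncertain for a further reason, since an antisense gene (Gm45774) overlaps it, as antisense and intronic genes overlap Fkbp5, and whether reads were counted by strand is not given in the sources used here.

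**Figure D3:**
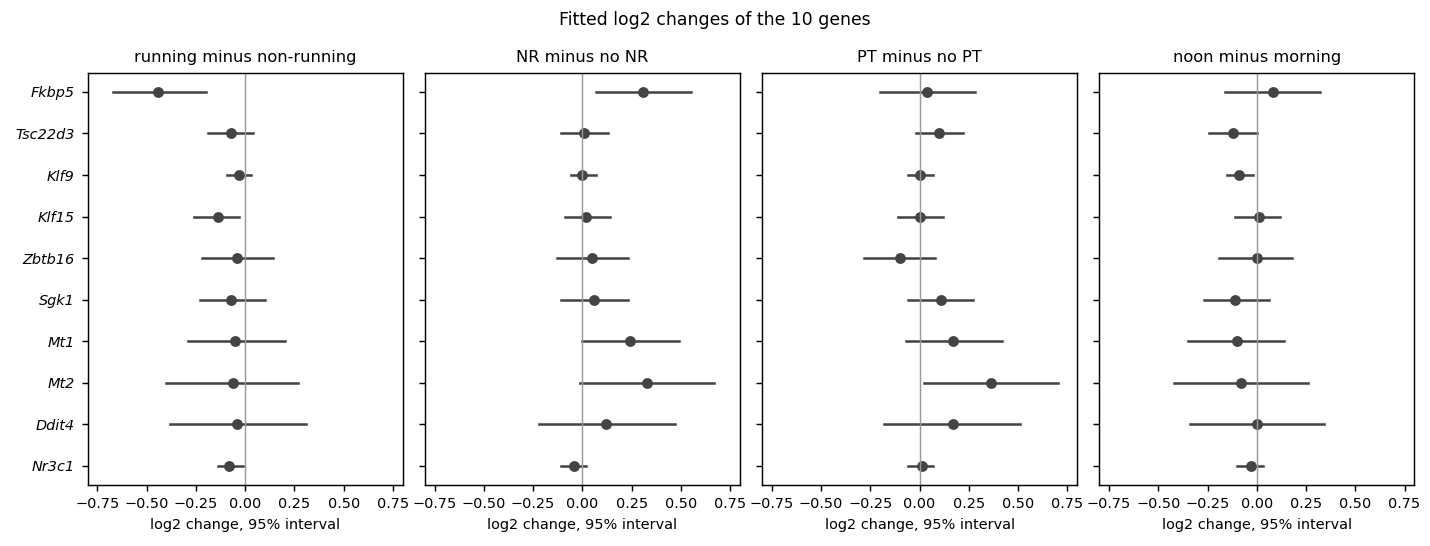
Fitted log2 change with its 95% interval (horizontal axes) of each of the 10 genes for running minus non-running, NR minus no NR, PT minus no PT and noon minus morning. Fkbp5 with running lies at -0.44, a value known when the list was drawn up, and the intervals of Mt2 and Ddit4 are the widest in each panel.

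Time of termination is a further factor of the labels, and the hormone's blood level is known to change over the day. Between noon and morning 0 of 10 members passed edgeR's test, against 0% of all genes, and DESeq2 called 0 of 10. At an unadjusted p below 0.05 there were 2 of 10 members and 5.28% of all genes. The smaller p belonged to Klf9, which ranged from 177 to 243 CPM with a median of 209 CPM in the 31 mice killed at noon and from 186 to 268 CPM with a median of 219 CPM in the 31 killed in the morning. The ranges overlapped, the noon mean was the lower one on 6 of 8 days, and the change was -0.09 ± 0.03 (edgeR, unadjusted p = 0.00891, adjusted p = 0.691). With a day left out it was -0.13 to -0.06 and passed in 1 of 8 such fits, without day 3 (edgeR adjusted p = 0.0332), where 206 of 14573 genes passed. It was -0.15 ± 0.04 in cohort 2 alone (edgeR adjusted p = 0.0809) and -0.02 ± 0.05 in cohort 1 alone (adjusted p = 0.995).

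Tsc22d3 was the other one, with 145 to 276 CPM and a median of 202 CPM at noon, against 162 to 279 CPM and a median of 221 CPM in the morning. Its change was -0.12 ± 0.06 (edgeR adjusted p = 0.943), with -0.15 ± 0.08 in cohort 2 alone and -0.06 ± 0.09 in cohort 1 alone, and the groups overlapped over most of their range. Sgk1 had a median of 170 CPM at noon and 183 CPM in the morning, a change of -0.11 ± 0.08 (edgeR adjusted p = 1). Fkbp5 had a median of 36.2 CPM at noon and 34.9 CPM in the morning, a change of 0.08 ± 0.12 (edgeR adjusted p = 1).

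The difference between noon and morning was also taken within each running state. Each running state met noon and morning on different days, so these comparisons cannot be told apart from differences between days. Their fit held cohort in place of day, and its SEs and intervals take mice, not days, as the units. For Fkbp5 the medians were 32.4 CPM at noon and 29.5 CPM in the morning in running mice (15 each), and 41.6 CPM at noon and 46.7 CPM in the morning in non-running mice (16 each). Its running-by-time interaction was 0.03 ± 0.23 on the log2 scale, with a 95% interval of -0.43 to 0.48, which does not exclude a moderate difference in either direction. For Klf9 the noon change was -0.07 ± 0.05 in running and -0.11 ± 0.04 in non-running mice, and for Tsc22d3 it was -0.13 ± 0.09 in running and -0.11 ± 0.08 in non-running mice. The interaction was passed by 0 of 10 members and 0% of all genes. The noon changes in running and in non-running mice were likewise passed by 0 of 10 members and 0% of all genes. At an unadjusted p below 0.05 these 3 comparisons held 0, 0 and 1 of 10 members, against 5.48%, 4.65% and 6.19% of all genes.

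Days are nested in cohorts, so the cohort comparison was fitted without day and took mice as the units. It cannot be told apart from differences between days, and largely not from purification pool. Cohort 2 differed from cohort 1 in 0 of 10 members, against 0.234% of all genes. None had an unadjusted p below 0.05, against 9.45% of all genes. The cohort changes ran from -0.06 ± 0.11 for Fkbp5 and -0.06 ± 0.09 for Zbtb16 to 0.18 ± 0.17 for Mt2. Body weight change, fitted as a slope within groups, days and times, was passed by 0 of 10 members and 0% of all genes. An unadjusted p below 0.05 was held by 1 of 10 members and by 6.86% of all genes. The 1 slope was that of Mt2, at 0.15 ± 0.06 log2 units per unit of weight change (edgeR, unadjusted p = 0.00958, adjusted p = 0.699).

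Across mice, some members varied closely together and others did not. Pearson's r of log2 CPM over the 62 mice was 0.80 for Tsc22d3 and Sgk1 (Spearman's rho 0.78), 0.75 for Sgk1 and Ddit4 (rho 0.77) and 0.75 for Tsc22d3 and Ddit4 (rho 0.75). Each of these r has a permutation p of 1e-05, the smallest that 100000 resamples can give, and an adjusted p of 7.5e-05 over the 45 pairs of members. Leaving out the 2 mice farthest from the median of the first gene gave 0.80, 0.75 and 0.72 for these pairs. The 3 genes thus varied together from mouse to mouse, while none of them passed in any comparison above.

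The 3 relations held within cohorts, running states and times. For Tsc22d3 and Sgk1 r was 0.74 in cohort 2 and 0.85 in cohort 1, 0.80 in running and 0.79 in non-running mice, and 0.84 at noon and 0.71 in the morning. For Sgk1 and Ddit4 the corresponding values lay between 0.74 and 0.80, and for Tsc22d3 and Ddit4 between 0.71 and 0.80. After group, day and time were taken out, r was 0.79, 0.75 and 0.78 for the 3 pairs. The points share their library, so its depth and RNA quality enter both axes, and their part was not tested.

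Klf9 and Mt1 joined this set more loosely. Klf9 had an r of 0.57 with Sgk1 (rho 0.55), 0.51 with Tsc22d3 (rho 0.46) and 0.47 with Ddit4 (rho 0.47). Mt1 had an r of 0.58 with Ddit4 (rho 0.64) and 0.56 with Mt2 (rho 0.50). Of the 45 pairs 34 had an r above 0 and 11 below, 7 had an r of at least 0.5, and 15 had an adjusted permutation p below 0.05. Within cohorts the r of these 5 pairs was 0.40 to 0.64 in cohort 2 and 0.42 to 0.59 in cohort 1, and without the 2 farthest mice it was 0.51 to 0.64. Their adjusted permutation p ran from 7.5e-05 to 0.0007.

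Fkbp5 stood largely outside this set. Its r was 0.28 with Sgk1 (rho 0.23, adjusted permutation p = 0.0805), 0.21 with Tsc22d3 and 0.04 with Klf9, and its highest were 0.36 with Mt1 (rho 0.36, adjusted permutation p = 0.0147) and 0.36 with Zbtb16 (rho 0.42, adjusted permutation p = 0.0147). Without the 2 farthest mice the last 2 values were 0.27 and 0.31, and within cohort 2 they were 0.35 and 0.26, against 0.40 and 0.45 in cohort 1. Nr3c1 had an r between -0.13 and 0.23 with every target. Zbtb16 had r below 0 with 7 of the 9 others, the lowest being -0.26 with Mt1 (rho -0.11, adjusted permutation p = 0.0921), where the shallowest library is highest in the one and lowest in the other.

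**Figure D4:**
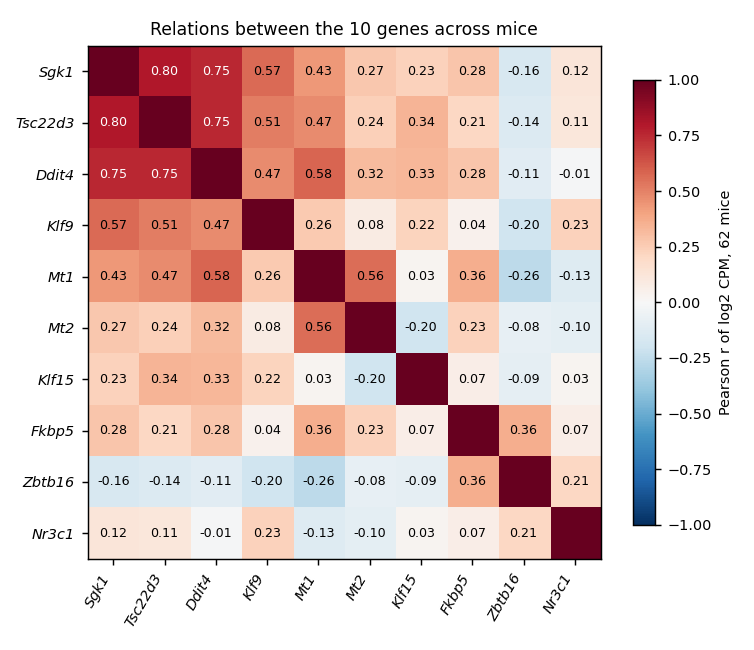
Pearson's r of log2 CPM over 62 mice for each pair of the 10 genes, on a colour scale from -1 to 1. Sgk1, Tsc22d3 and Ddit4 form the block of highest values (0.75 to 0.80), and Fkbp5, Zbtb16 and Nr3c1 lie in the paler rows.

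**Figure D5:**
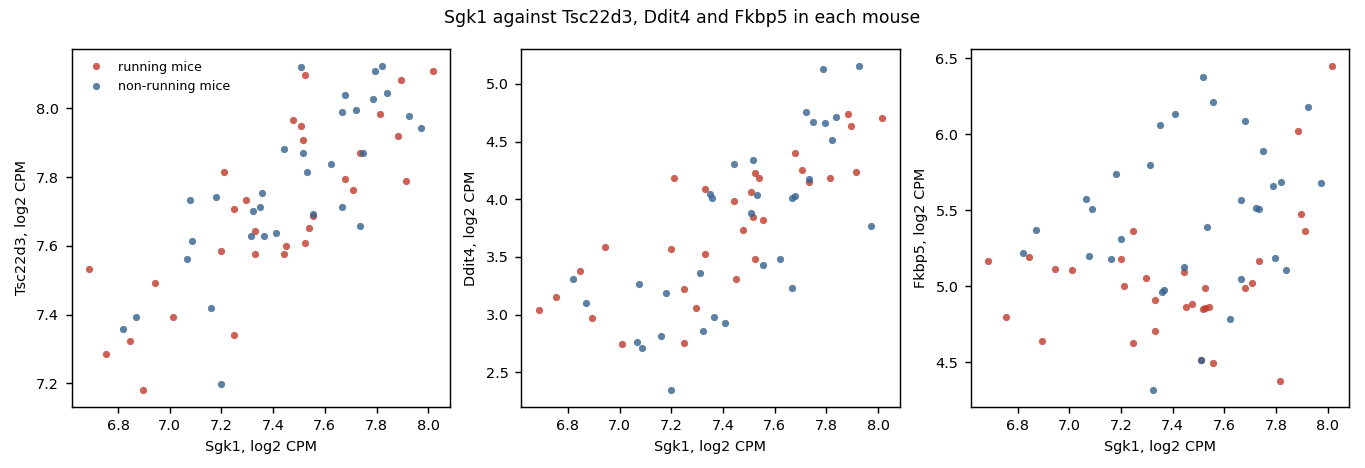
Sgk1 (horizontal axes) against Tsc22d3, Ddit4 and Fkbp5 (vertical axes) in each mouse, in log2 CPM, running mice red and non-running mice blue. Tsc22d3 and Ddit4 follow Sgk1 in both running states (r = 0.80 and 0.75 over all mice), while Fkbp5 scatters (r = 0.28).

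The 3 genes with the highest r to each member were taken as a description, over 62 mice. Only genes averaging 1 CPM or more were used, and predicted genes were left out. Fkbp5 was most like Cdkn1a (r = 0.80), the cell cycle inhibitor p21, then Car14 (0.78), a carbonic anhydrase, and Dtna (0.69), a dystrobrevin. Of the genes used for this search 0.640% had an r over 0.5 with Fkbp5. Tsc22d3 was most like Arrdc2 (0.83), Tob2 (0.81) and Arrdc3 (0.80), and Sgk1 most like Arrdc2 (0.82), Gadd45g (0.81) and Tsc22d3 (0.80). Ddit4 was most like Nfkbia (0.86), the inhibitor of NF-kappa-B, Gadd45g (0.86), a growth arrest and DNA damage gene, and Depp1 (0.83).

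Klf9 was most like Nr1d2 (0.83), a REV-ERB repressor of the clock, Cep85l (0.78) and Nfe2l2 (0.75). Klf15 was most like Nfkbib (0.69), Bcat2 (0.67), the mitochondrial branched-chain aminotransferase, and Ipo5 (0.63). Zbtb16 was most like Ssh2 (0.73), Map3k20 (0.72) and Abl2 (0.70), and Nr3c1 most like Pafah1b1 (0.74), Hook3 (0.73) and Stag2 (0.73). The values were lower for Mt1, with Tsku (0.67), Arl4d (0.61) and Rpl19 (0.60), and for Mt2, with Mt1 (0.56), Errfi1 (0.52) and Arl4d (0.49). Once group, day and time were taken out, all 3 genes were kept for Klf9, Klf15, Sgk1 and Ddit4, 2 for Fkbp5, Tsc22d3 and Zbtb16, 1 for Mt1 and Nr3c1, and 0 for Mt2.

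Other genes of the pathway were counted in lists drawn up with earlier results of these data known; Per1 stands in the list of induced genes and in that of the clock, and Sesn1 in that of induced genes and of mTORC1 restraint. Of 26 further glucocorticoid-induced genes, 0 rose and 4 fell with running, against 8.41% of all genes tested that rose and 5.58% that fell, 14% in all. The median change was -0.06, against 0.01 over all genes. Cdkn1a fell by 0.66 on the log2 scale (SE 0.12), Mstn, the growth inhibitor myostatin, by 0.24 (SE 0.08), Trim63, a muscle ubiquitin ligase, by 0.19 (SE 0.04), and Eif4ebp1, a translation repressor, by 0.16 (SE 0.06). The remaining 22, among them Per1, Pdk4, Dusp1, Nfkbia and Arrdc2, did not pass.

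Of 18 tested genes of the receptor machinery 2 rose and 2 fell with running, with a median of -0.04; the same 14% of all genes is the background for this and the next 3 lists. Hsd11b1, whose enzyme regenerates active hormone inside cells, rose by 0.19 ± 0.06, and Abcb1a, which encodes a drug and steroid exporter, by 0.17 ± 0.05. The chaperone genes Hspa8 and Stip1 fell by 0.18 (SE 0.03) and 0.12 (SE 0.03). Of 7 tested genes of metal and zinc handling 1 rose, the zinc importer Slc39a14 (0.10 ± 0.04). Of 9 genes that restrain mTORC1, Castor1 rose (0.37 ± 0.08) and Tsc1 fell (-0.14 ± 0.03). Of 19 clock genes 3 fell, Nfil3 (-0.27 ± 0.09), Cry1 (-0.22 ± 0.04) and Rora (-0.17 ± 0.04).

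Between noon and morning none of these lists had a gene that passed. The clock genes with the smallest p were Hlf (-0.37 ± 0.10, edgeR adjusted p = 0.438), Per2 (-0.67 ± 0.20, adjusted p = 0.468), Arntl (0.76 ± 0.22, adjusted p = 0.468) and Nr1d1 (0.34 ± 0.12, adjusted p = 0.691). Among the glucocorticoid-induced genes they were Fbxo32 (0.33 ± 0.12, adjusted p = 0.691), Cebpb (-0.30 ± 0.11, adjusted p = 0.734), Trim63 (0.09 ± 0.04, adjusted p = 0.786) and Per1 (-0.39 ± 0.16, adjusted p = 0.794). With NR and with PT no gene of these lists passed either.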

How the data were processed

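Poly-A RNA of quadriceps was read as 52-base pairs on stranded libraries, per the labels' protocols. The authors deposited 1 table of whole-number counts per gene, made with STAR 2.7.3a and featureCounts 2.0.0 on mm10, per the submitters' processing notes; the annotation release and whether counting used strand were not given in the sources used here. Of 55487 gene identifiers 99.8% were matched to symbols through GENCODE M21. Each value column matched 1 sample title.

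Counts were filtered (filterByExpr, minimum count 10, minimum total 15), scaled by TMM and fitted across all genes with edgeR 4.0.16 (robust quasi-likelihood F test, two-sided) in R 4.3.3. The fit held the 8 groups, day and time of termination, with 46 residual degrees of freedom. The running-by-time fit held cohort in place of day (51 residual degrees of freedom), and so did the fit for cohort. The body weight fit added body weight change to the main fit. Genes passed at a Benjamini-Hochberg adjusted p below 0.05 over all 14549 genes, and SEs were recovered from the F statistics. DESeq2 1.42.0 was an alternative. Correlations used log2 CPM (prior count 2) and two-sided permutation tests with 100000 resamples (scipy 1.17.1). The labels tell mice apart only as separate samples, so p-values measure the spread between these samples.

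All 10 members were named in every main comparison, up to 4 genes of smallest p per list for running and for noon, and 3 most alike genes per member; the remaining named list genes were chosen after their values were seen. The members and lists were chosen with earlier results of these data known.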

Additional observations from a re-analysis of the deposited data

Results flagged for a closer look

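In each of the 8 groups, each of the 10 genes was searched by Dixon's test for a mouse far from the rest. The test used log2 CPM, while the levels given here are in CPM. Of 80 combinations in all 4 were flagged, and chance flags about 1 in 20 groups. Fkbp5 was 87.5 CPM in running with PT replicate 2, killed on day 2, where the other 7 mice of the group had 20.8 to 35.9 CPM. Klf15 was 26.0 CPM in the non-running group with neither supplement, replicate 2, where the other 7 had 38.3 to 51.1 CPM. Zbtb16 was 110.0 CPM and Mt1 1.55 CPM in running with NR replicate 1, where the other mice of the group had 31.3 to 45.9 CPM of Zbtb16 and 5.03 to 9.28 CPM of Mt1. That library is the shallowest, with 5.64 M counts of which 23.1% were ribosomal-like, and the part of its depth and composition in these values was not tested.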

How the results depend on the processing

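The list was drawn up with the lower Fkbp5 level in running mice known, so nothing is read from the running counts of members below. The number of the 10 genes that passed for running was 1, and also 1 with RLE scaling and without the filter on low counts. With counts summed per session it was 1, where the gene was Klf15 and not Fkbp5. The number was also 1 with RIN and purification pool added, with DESeq2 and without the library highest in Fkbp5. It was 0 in cohort 2 alone, 0 in cohort 1 alone and 0 with body weight change added, 2 without the ribosomal-rich libraries, and 0 to 2 when each day was left out. It was 2 without the library highest in Zbtb16, an alternative chosen, like that without the library highest in Fkbp5, after seeing the data. Leaving out days gave Fkbp5 changes of -0.57 to -0.36. Over all genes 2035 passed for running, 1036 to 2358 with a day left out (1036 without day 1, 1189 without day 4), 1333 without the filter, 1245 per session, 494 with body weight change added, 63 in cohort 2 alone and 623 in cohort 1 alone; the last 2 have fewer samples. For noon against morning 0 to 1 members passed with a day left out, and over all genes 0 passed, but 145 without day 2, 206 without day 3, 254 in cohort 2 alone and 1 with DESeq2. With the replicate number as a block in place of day the running count was 1 member and 1976 genes. The numbers share a day in 47 of 211 pairs of samples, and the median correlation of deviations was 0.01 for the same number, so they do not pair the samples.

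Signs turned only for changes that did not pass. With a day left out, running changes were -0.14 to 0.04 for Mt1, -0.19 to 0.14 for Mt2, -0.20 to 0.13 for Ddit4 and -0.15 to 0.02 for Zbtb16; noon changes -0.01 to 0.07 for Klf15 and -0.27 to 0.05 for Mt2; NR changes -0.02 to 0.04 for Tsc22d3, -0.02 to 0.05 for Klf15 and -0.02 to 0.08 for Zbtb16; PT changes -0.05 to 0.13 for Fkbp5 and -0.02 to 0.03 for Nr3c1. In cohort 2 alone Zbtb16 had 0.04 for running; Klf15 -0.06, Mt2 0.20 and Nr3c1 0.02 for noon; Tsc22d3 -0.01 and Klf15 -0.09 for NR; and Zbtb16 0.03 for PT. In cohort 1 alone Mt2 had 0.18 for running and Fkbp5 -0.09 for noon. Without the ribosomal-rich libraries Mt2 had 0.04 and Ddit4 0.04 for running, and Klf15 -0.02 and Zbtb16 -0.03 for NR. With body weight change added Mt1 had 0.13 and Mt2 0.41 for running. With the replicate block Klf15 had -0.01 for noon, and without the library highest in Fkbp5 that gene had -0.05 for PT. Changes that round to 0.00 in the main fit have no sign to turn and are not in this list. Among them, noon changes with a day left out were -0.16 to 0.17 for Ddit4 and -0.06 to 0.09 for Zbtb16. In the other alternatives the noon change was -0.19 to 0.17 for Zbtb16 and the PT change -0.08 to 0.11 for Klf15. The causes were not tested.

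The 95% interval for running was -0.40 to 0.27 on the log2 scale for Mt2, with 3 to 58 counts per library, and -0.38 to 0.31 for Ddit4, with 36 to 790. The part of depth in these widths was not tested.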
